A study of Mus musculus with 10 samples.

Results

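The interferon response genes are transcripts that cells switch on after interferon reaches its receptors. The 33 genes were taken by symbol from a list of well-known interferon targets in the mouse, and 31 of them had a probe set that the platform annotation gives to that gene alone. Each gene was represented by its brightest probe set on average over the 10 arrays. All 31 passed the filter on dim genes and were among the 13644 genes tested, of 18193 with a probe set. Isg15 was left out because its probe set is annotated to a second gene as well, and Ifi44 was not analysed here.

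The arrays were hybridised with total RNA of 8 cystic fibrosis knockout mice, in which the chloride channel gene Cftr is disrupted, and of 2 controls. All were B6xBALB F2 animals, the second generation of a cross of the inbred strains C57BL/6 and BALB/c, so every mouse carried its own mix of the strains' alleles. By a letter in their titles, 5 knockouts are called H here and 3 are called L, while the controls carry D in that position. What the letters stand for is not said, though the series title speaks of variable weight, and whatever D stands for cannot be told apart from having an intact Cftr. Every title also holds M (6 samples) or F (4 samples) and a number. These numbers form a lower range, with 3 knockouts and both controls, and an upper range, with the other 5 knockouts. The labels do not give the age, any treatment, the kind of Cftr allele and the genotype of the controls. Each title number was taken as 1 animal. Nothing else says that the samples are separate animals, so each p-value reflects the spread between these samples, which may be technical.

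The values were linear intensities, on arrays whose medians lay between 18.4 and 18.8. Cftr read 19.7 to 35.5 in the 8 knockouts and 131 and 137 in the controls. The source is labelled whole right lung, while intestinal transcripts were bright on every array. Fabp2, the intestinal fatty acid binding protein, read 3217 to 7345 and the microvillus gene Vil1 2422 to 3721. Sftpc of alveolar type 2 cells read 1099 to 4169 and Scgb1a1 of airway club cells 2011 to 5610. The lung transcripts were highest in knockout H replicate 2 and knockout H replicate 5. These are whole-tissue RNAs, in which fewer cells of a type and less RNA per cell cannot be told apart.

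Type I and type III interferons act on antiviral genes through the interferon-stimulated response element, ISRE, in their promoters, which a complex with STAT2 and IRF9 binds. Interferon gamma, made mainly by T cells and natural killer cells, acts through the gamma-activated site, GAS, and induces IRF1, GTPases of cell-autonomous defence and the chemokines CXCL9 and CXCL10. In gut and lung both arms keep a low tonic activity that microbes and viruses raise.

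The promoters of the genes were searched for both elements, since the genes are grouped by their response to these signals. RefSeq promoter windows of the mouse build GRCm38.p6, from 250 bases before to 50 after the start of the gene, were at hand for 25 of the 33 genes. The ISRE was searched as GAAA, any 2 bases and GAAA again, and the GAS as TTCNNNGAA, both on either strand. An ISRE match stood in the windows of 16 of the 25 genes (64%) and of 3.99% of 27025 genes with such windows. A GAS match stood in 5 of the 25 (20%) and in 9.55% of all genes. Some matches overlap, as the 2 ISRE matches of Oas1a and of Irgm1 do, and in Bst2 a GAS match overlaps an ISRE match. A match describes the letters only, and no match says only that these letters are not in this window.

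The 250 bases before the start follow for 4 of the genes, 5′ to 3′ on the strand of the gene, with ISRE and GAS matches in capitals. Irf7 and Rsad2 were lower in all 8 knockouts than in both controls, as 11.7% of all genes tested were. Ifit1 spread widely over the knockouts, and Igtp varied most among the knockouts. The windows are chr7:141266425-141266674 (minus strand) for Irf7, chr12:26456453-26456702 (minus strand) for Rsad2, chr19:34640639-34640888 (plus strand) for Ifit1 and chr11:58199306-58199555 (plus strand) for Igtp.
Irf7: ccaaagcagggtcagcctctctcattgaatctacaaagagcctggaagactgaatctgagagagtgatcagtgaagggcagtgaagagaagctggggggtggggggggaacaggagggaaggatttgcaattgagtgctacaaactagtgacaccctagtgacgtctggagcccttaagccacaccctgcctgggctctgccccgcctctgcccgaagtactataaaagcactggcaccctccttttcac
Rsad2: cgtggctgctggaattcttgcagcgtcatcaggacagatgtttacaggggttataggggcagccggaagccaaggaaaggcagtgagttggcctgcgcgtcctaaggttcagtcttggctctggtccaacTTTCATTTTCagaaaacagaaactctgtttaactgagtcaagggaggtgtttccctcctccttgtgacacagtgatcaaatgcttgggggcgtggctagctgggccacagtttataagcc
Ifit1: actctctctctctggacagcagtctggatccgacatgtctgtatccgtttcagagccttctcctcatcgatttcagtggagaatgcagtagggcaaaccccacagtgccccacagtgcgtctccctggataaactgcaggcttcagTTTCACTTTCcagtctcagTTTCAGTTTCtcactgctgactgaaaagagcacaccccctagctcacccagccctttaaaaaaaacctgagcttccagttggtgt
Igtp: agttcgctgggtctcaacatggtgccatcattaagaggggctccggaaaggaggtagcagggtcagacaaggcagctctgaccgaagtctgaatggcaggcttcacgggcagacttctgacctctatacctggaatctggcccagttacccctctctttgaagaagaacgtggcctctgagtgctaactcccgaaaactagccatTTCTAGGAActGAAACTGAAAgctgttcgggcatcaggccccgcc
The window of Irf7 held no match of either motif. Rsad2 held 1 ISRE match, from base -120 to -111 before the start, and Ifit1 held 2, from -104 to -95 and from -85 to -76, both read on the opposite strand. In Igtp a GAS match from -45 to -37 stood just before an ISRE match from -34 to -25.

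Stretches of 30 bases around the first ISRE match of 2 OAS genes and 2 GTPase genes show the bases beside the core, which the search itself fixed. They lie at chr5:120777715-120777744 (minus strand) for Oas3, chr5:120907526-120907555 (minus strand) for Oas1a, chr11:48871431-48871460 (minus strand) for Irgm1 and chr3:142620594-142620623 (plus strand) for Gbp2. Capitals mark ISRE matches.
Oas3: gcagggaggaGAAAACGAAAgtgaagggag
Oas1a: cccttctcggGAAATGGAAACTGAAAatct
Irgm1: cctgtttcaaGAAATAGAAACCGAAActga
Gbp2: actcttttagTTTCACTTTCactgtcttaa
Oas3 and Oas1a both held an ISRE match close to the start. Of the pair only Oas3 had every knockout below both controls, as 11.7% of all genes tested did.

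**Figure D1:**
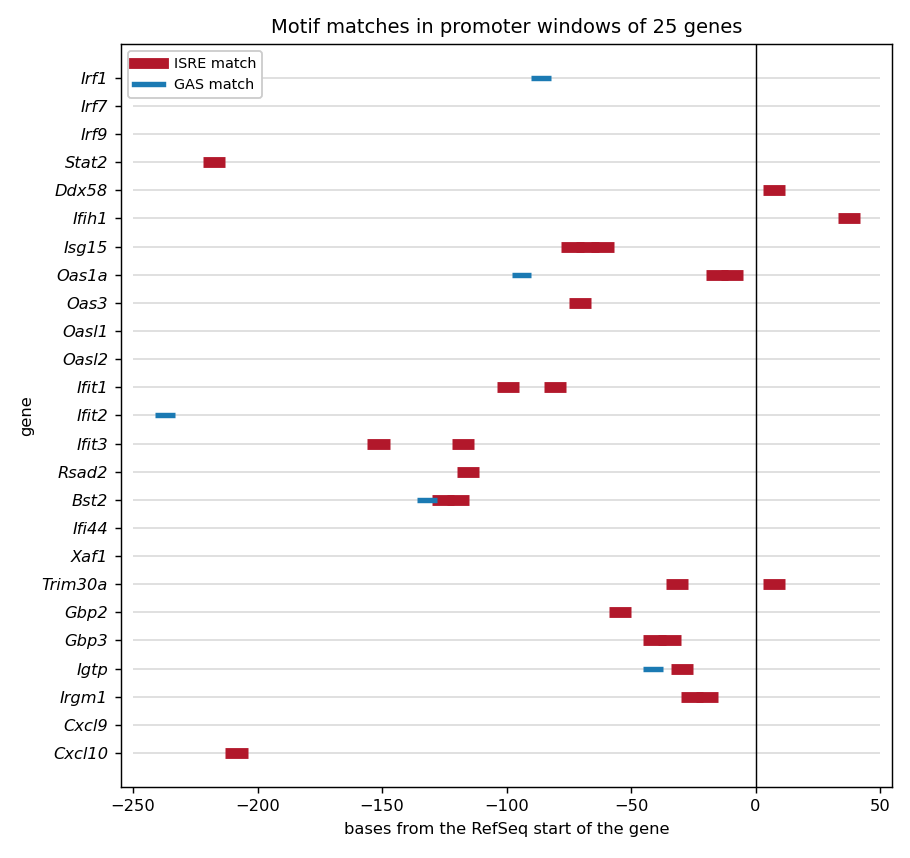
Positions of ISRE matches (thick red bars) and GAS matches (thin blue bars) in the promoter windows of 25 interferon response genes, in bases from the RefSeq start of the gene, with all windows of a gene drawn on 1 line. Matches stand in 16 genes for the ISRE and in 5 for the GAS, and Irf7, Oasl1, Oasl2 and Xaf1 are among those with neither.

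Knockout versus control asked what the loss of Cftr does to these transcripts. The members were on the whole lower in the knockouts, and the difference passed the test for 1 of them. Of the 31 genes, 28 (90.3%) had a log2 difference below 0, where 51.3% of all 13644 genes did. Their median was -0.37, where that of all genes was -0.0047. The median was -0.18 without control replicate 2, -0.59 without knockout H replicate 5, -0.14 with the letter as the covariate and -0.18 with no covariates. Differences are limma estimates on the log2(intensity + 16) scale, adjusted for the number range and for the letter. The upper number range holds no control, so the estimates rest on the 3 knockouts and 2 controls of the lower range, while the other 5 knockouts inform the letter term and the spread. Irf7 passed at an adjusted p under 0.05 and was lower. That is 1 of 31 members (3.23%), against 4.31% of all genes called, 2.79% lower and 1.52% higher. The share is near that of genes at large, below it in either direction and slightly above it for genes called lower. At an unadjusted limma p under 0.05 stood 8 members (25.8%), all lower, against 19.4% of all genes. All 8 knockouts lay below both controls for 4 members, Irf7, Oas3, Oasl2 and Rsad2 (12.9%), against 11.7% of all genes, and above both controls for none, against 10% of all genes.

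**Figure D2:**
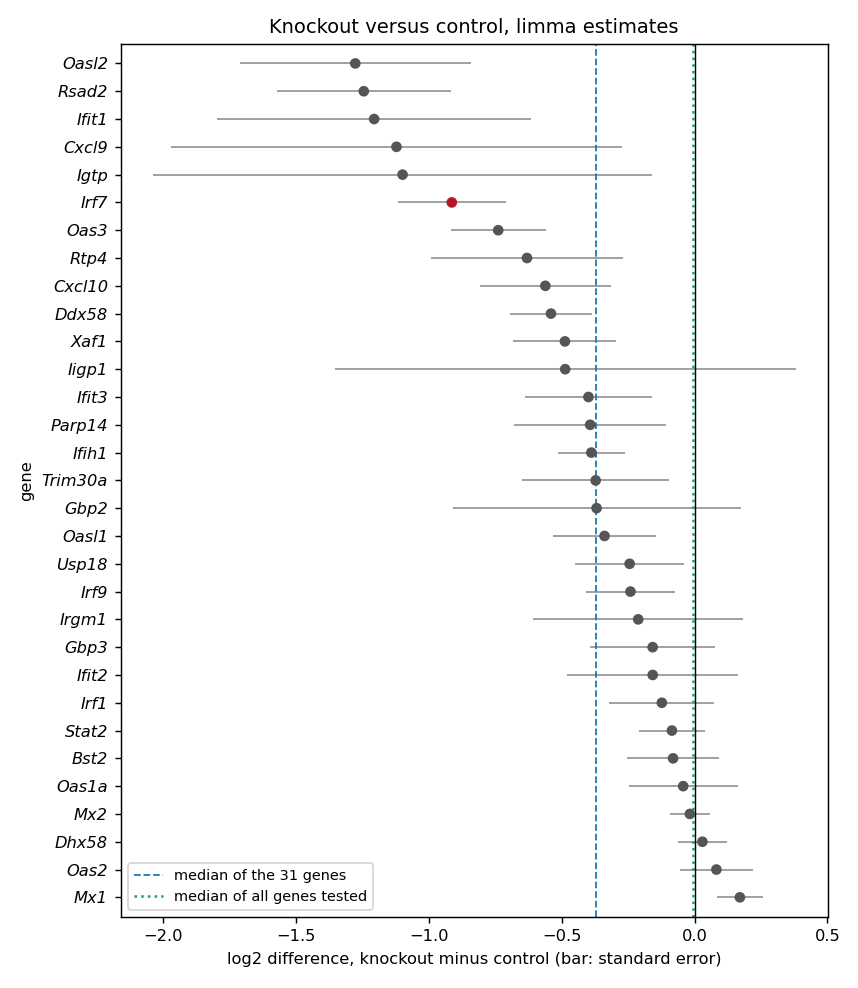
Log2 difference, knockout minus control, of the 31 genes (points, with bars for the standard error), in red for the gene with a limma adjusted p under 0.05. Irf7 is that gene, and the dashed line at -0.37 is the median of the 31 genes beside the dotted line of all genes at -0.0047.

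Among the signalling and transcription factors, Irf7, the regulator that amplifies type I interferon production, fell. Its intensity was 348 and 227 in the controls, 153, 122, 119, 119 and 131 in knockouts H replicates 1 to 5, and 125.5, 191 and 215.5 in knockouts L replicates 1 to 3. Every knockout lay below both controls, the nearest being knockout L replicate 3. Knockouts averaged 147 ± 37.0 (SD, n = 8) and controls 287.5 ± 86.0 (SD, n = 2). The log2 difference was -0.91 ± 0.20 (SE), with an adjusted p of 0.0401 in limma. Irf7 no longer passed in 11 of 24 other settings. Leaving out 1 array did this for 6 of the 10 arrays: knockout L replicates 1 and 2 (adjusted p = 0.0603 and 0.0668), knockout H replicates 3 and 5 (0.0502 and 0.0856), and control replicates 1 and 2 (0.309 and 0.173). The log2 difference stayed between -1.08 and -0.69 in all 24. Within the lower number range alone it was -0.91 (adjusted p = 0.0533 in limma), and the upper range holds no control.

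The other factors of this group did not pass. Irf1, the factor that interferon gamma induces and the brightest of all 31 genes, read 730 at the lowest, 771 at the median and 1322 at the highest among the 8 knockouts, and 808 and 822 in the controls. Its highest value stood in knockout L replicate 2, while the controls lay inside the range of the knockouts. Irf9, the DNA-binding subunit of the complex at the ISRE, averaged 80.3 ± 17.1 in knockouts and 97.4 ± 12.0 in controls (log2 difference -0.24 ± 0.17). Stat2, its partner, averaged 57.7 ± 11.2 and 67.0 ± 11.1 (-0.09 ± 0.12). Limma adjusted p was 0.802, 0.487 and 0.781 for Irf1, Irf9 and Stat2.

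No cytoplasmic RNA sensor passed the test. Ddx58, known as RIG-I, read 158 and 108 in the controls and 68.1, 91.9 and 113 as lowest, median and highest of the knockouts. Only knockout L replicate 2 exceeded the lower control, and the log2 difference was -0.54 ± 0.15 (limma adjusted p = 0.0903). Ifih1, known as MDA5, read 269 and 227 in the controls and 183, 217 and 326 as lowest, median and highest of the knockouts, with a log2 difference of -0.39 ± 0.13 (adjusted p = 0.126 in limma). Without knockout H replicate 5 it passed (-0.57, adjusted p = 0.0428 in limma), and over 24 alternative settings the difference ran from -0.57 to -0.14 and the adjusted p from 0.0428 to 0.664. Its highest value again stood in knockout L replicate 2, above both controls. Dhx58, known as LGP2 and a modulator of both sensors, was dim at 14.25 to 24.3 in the knockouts and 17.7 and 23.1 in the controls. Usp18, the protease that strips the ubiquitin-like protein ISG15 from its targets and damps the type I receptor, read 55.1 and 35.1 in the controls and 21.3 to 54.7 in the knockouts. It differed by -0.24 ± 0.21 on the log2 scale, and 7 of 8 knockouts lay below both controls.

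The OAS genes, oligoadenylate synthetases that activate RNase L on double-stranded RNA, split. Oas3 read 87.5 and 55.9 in the controls, 38.0, 29.7, 22.8, 28.8 and 40.0 in knockouts H replicates 1 to 5, and 29.5, 33.5 and 41.7 in knockouts L replicates 1 to 3. All 8 knockouts lay below both controls, with a log2 difference of -0.74 ± 0.18 (limma adjusted p = 0.0544). The gene passed in 5 of 24 alternative settings, with adjusted p from 0.00892 to 0.449 over the 24. Oas2, its neighbour in the genome, averaged 30.3 ± 6.18 in knockouts and 31.6 ± 2.20 in controls. Its adjusted log2 difference was 0.08 ± 0.14, opposite in sign to the plain means. Oas1a, with 2 overlapping ISRE matches before its start, averaged 351 ± 71.6 and 372 ± 65.0 (-0.04 ± 0.21). Both groups overlapped for these 2 genes, and knockout L replicate 3 was the highest array for each.

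The OAS-like genes stand next to each other in the genome. Oasl2 read 253 and 166 in the controls, 96.9, 59.5, 40.1, 48.2 and 90.6 in knockouts H replicates 1 to 5, and 36.6, 140 and 119 in knockouts L replicates 1 to 3. Knockouts were below both controls throughout, and spread over 3.83-fold among themselves. The log2 difference of -1.28 ± 0.43 was the lowest of the 31 genes and did not pass (limma adjusted p = 0.143). Oasl1, which restrains the translation of Irf7 mRNA, read 205 and 196 in the controls and 102, 148 and 220 as lowest, median and highest of the knockouts. All but knockout L replicate 2 lay below both controls, and the log2 difference was -0.34 ± 0.19 (adjusted p = 0.395 in limma).

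The IFIT genes encode proteins that bind foreign RNA ends. Ifit1 read 222 and 174 in the controls, 80.0, 83.6, 25.1, 49.6 and 80.3 in knockouts H replicates 1 to 5, and 27.4, 216.5 and 152.5 in knockouts L replicates 1 to 3. Knockouts differed among themselves by up to 8.61-fold, and knockout L replicate 2 lay between the controls. With a log2 difference of -1.20 ± 0.59 the gene did not pass (limma adjusted p = 0.309). Ifit2 and Ifit3, which neighbour each other, had log2 differences of -0.16 ± 0.32 and -0.40 ± 0.24. Both were highest in knockout L replicate 2, at 69.3 and 76.1, against 32.25 and 39.2 for Ifit2 and 57.05 and 59.1 for Ifit3 in the controls.

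Among the 4 other antiviral effectors, Rsad2 had the lowest log2 difference. It encodes viperin, an enzyme that makes a chain-terminating nucleotide against viral polymerases. It read 155 and 145 in the controls, 49.5, 41.1, 23.5, 35.35 and 48.5 in knockouts H replicates 1 to 5, and 25.45, 53.6 and 99.3 in knockouts L replicates 1 to 3. All 8 knockouts lay below both controls. Knockouts averaged 47.0 ± 23.8 (SD, n = 8) and controls 150 ± 7.25 (SD, n = 2), a log2 difference of -1.24 ± 0.33 (limma adjusted p = 0.0686), which passed in 3 of 24 alternative settings with adjusted p from 0.0141 to 0.335 over the 24. The 2 dimmer Rsad2 probe sets also read lower in all 8 knockouts, at means of 16.3 against 32.9 and 10.5 against 22.4. Of the 31 genes, 11 had more than 1 probe set, and 8 other probe sets passed the filter. All 8 had the sign of the probe set used. Their log2 differences were -0.06 and -0.15 for Ddx58, -0.03 for Parp14 and -0.04 for Stat2. They were -0.49 for Rsad2, -0.37 for Trim30a, -0.30 for Gbp2 and -0.32 for Iigp1. Bst2, or tetherin, which holds budding virus at the membrane, averaged 62.3 ± 13.3 in knockouts and 66.6 ± 0.219 in controls. The dynamin-like GTPase genes Mx1 and Mx2 lay near the array medians. Mx1 is disrupted in many inbred strains, C57BL/6 and BALB/c included. Mx1 read 15.8 to 23.3 in knockouts and 15.0 and 16.8 in controls, and Mx2 14.6 to 18.9 and 15.9 and 18.7.

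Of the other induced genes, Rtp4, a Golgi chaperone, read 220 and 118 in the controls and 50.04, 97.4 and 154 as lowest, median and highest of the knockouts (log2 difference -0.63 ± 0.36, limma adjusted p = 0.395). Xaf1, a pro-apoptotic factor, read 146 and 91.6 in the controls and 49.05, 77.3 and 106 as lowest, median and highest of the knockouts (-0.49 ± 0.19, adjusted p = 0.208 in limma). For both genes 6 of 8 knockouts lay below both controls. Parp14, an ADP-ribosyltransferase, and Trim30a, a ring-finger protein, had log2 differences of -0.39 ± 0.29 and -0.37 ± 0.28. Parp14 was highest in knockout L replicate 2 (446, controls 244 and 289) and Trim30a in knockout H replicate 2 (97.5, controls 63.8 and 52.5).

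**Figure D3:**
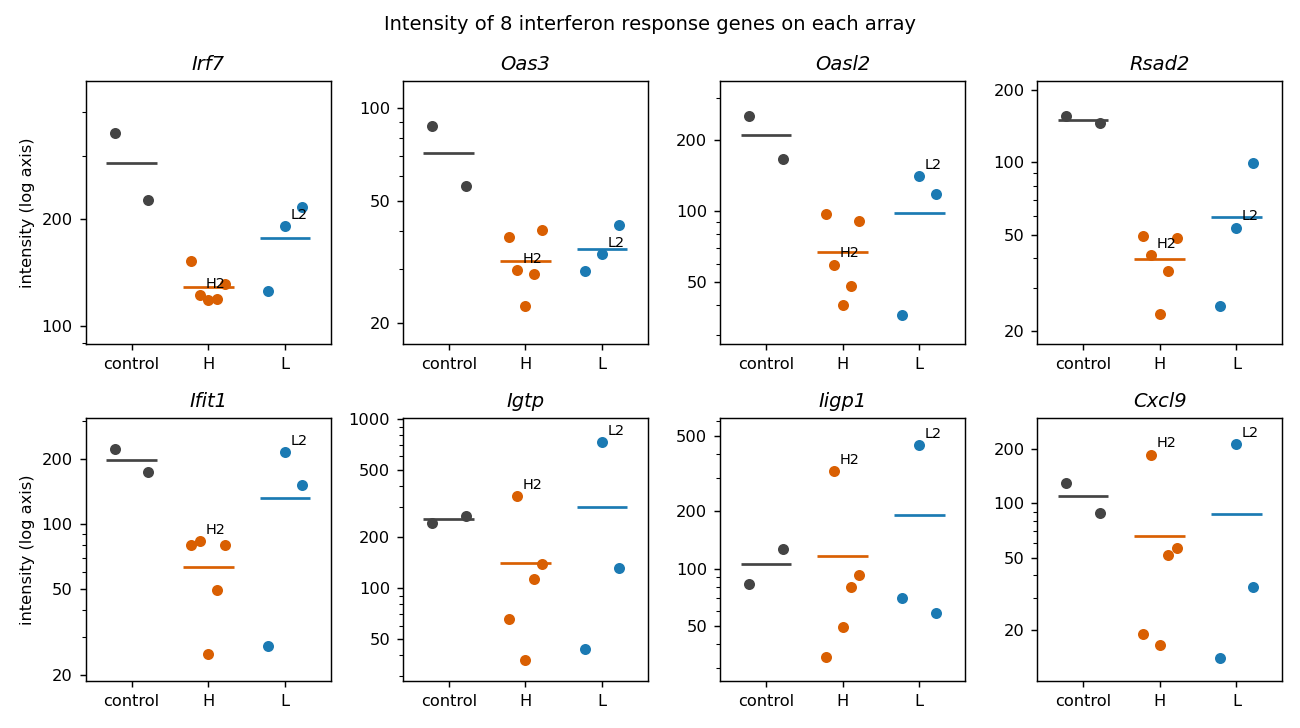
Intensity (log axis) of 8 interferon response genes on each array, by group (2 controls, 5 knockouts H, 3 knockouts L), with a bar for the group mean and the points of knockout H replicate 2 (H2) and knockout L replicate 2 (L2) named. For Irf7, Oas3, Oasl2 and Rsad2 every knockout lies below both controls (12.9% of the 31 members, against 11.7% of all genes). For Igtp, Iigp1 and Cxcl9 the points H2 and L2 lie above both controls.

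The guanylate-binding proteins and immunity-related GTPases, which interferon gamma induces against microbes inside cells, had their highest values in the same array. Igtp read 243.5 and 267 in the controls, 65.4, 349, 37.6, 113 and 139.5 in knockouts H replicates 1 to 5, and 43.35, 725 and 132 in knockouts L replicates 1 to 3. Knockout L replicate 2 and knockout H replicate 2 exceeded both controls, the other 6 knockouts lay below both, and the knockouts spanned 19.3-fold. Iigp1 showed the same 2 arrays on top, at 446 and 326.5, against 34.0 to 92.0 in the other 6 knockouts and 83.3 and 127 in the controls. Gbp2 read 200 and 118 in these 2 arrays, 31.03 to 61.9 in the other 6 knockouts and 64.3 and 91.0 in the controls. Gbp3 and Irgm1, the latter a regulator of the other GTPases, had the same 2 arrays above both controls, at 41.8 and 33.8 for Gbp3 and 408 and 240 for Irgm1. Over the knockouts the SD on the log2 scale was 1.30 for Igtp and 1.15 for Iigp1, 0.73 for Gbp2, 0.56 for Irgm1 and 0.32 for Gbp3, where the median was 0.30 over the 31 genes and 0.12 over all genes. Log2 differences from control were -1.098 ± 0.94 for Igtp, -0.49 ± 0.87 for Iigp1, -0.37 ± 0.54 for Gbp2, -0.21 ± 0.40 for Irgm1 and -0.16 ± 0.24 for Gbp3, with limma adjusted p from 0.595 to 0.833. For Iigp1, Irgm1 and Gbp3 the plain mean was higher in the 8 knockouts than in the controls (144.5 against 105, 188 against 171.5, and 23.4 against 22.6), opposite to the adjusted difference, and so it was for Irf1 (855 against 815). For Oas2 and Dhx58 the plain mean was lower in the knockouts (30.3 against 31.6 and 18.4 against 20.4), while the adjusted difference was above 0 (0.08 and 0.03).

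The chemokines that draw T cells and natural killer cells through the receptor CXCR3 followed the GTPases. Cxcl9 read 130 and 88.05 in the controls, 212 in knockout L replicate 2 and 186 in knockout H replicate 2, and 13.9 to 56.65 in the other 6 knockouts. Cxcl10 read 41.0 and 29.0 in the controls, 45.0 and 30.96 in the same 2 knockouts, and 13.1 to 21.8 in the other 6. The log2 differences of -1.12 ± 0.85 and -0.56 ± 0.25 did not pass (limma adjusted p = 0.534 and 0.252). With the 2 arrays left out, which were picked after the data had been seen because they were the highest in natural killer cell markers, 3 of 31 members (9.68%) passed, against 5.69% of all genes, all lower: Igtp (-0.89, limma adjusted p = 0.0308), Cxcl9 (-0.98, 0.0338) and Cxcl10 (-0.51, 0.0386), while Irf7 (-0.91) did not (0.0581). These 2 arrays were also the highest of all 10 in Igtp and Cxcl9, so leaving them out had to narrow the spread, and the differences themselves became smaller in size. The lower number range alone gave the same 3 differences from the same samples (3 of 31, against 7.57% of all genes called), which is no separate support.

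Markers of natural killer cells and T cells were highest in knockout L replicate 2 and knockout H replicate 2, as all 5 GTPases were. The summed intensity of 9 natural killer cell markers was 1126 in knockout L replicate 2 and 901 in knockout H replicate 2, 802 and 706 in the controls, and 167 to 592 in the other knockouts. Gzma, the brightest, ranged from 42.7 to 649.5 and Gzmb from 23.8 to 284, while Ncr1, Eomes and Klre1 did not pass the filter on dim genes. The sum of 8 T cell markers was 445 and 359 in these 2 knockouts, 333 and 327 in the controls, and 169 to 255 in the other knockouts. Cd3g ranged from 15.2 to 107 and Cd3e from 34.6 to 61.0. Macrophage and monocyte markers (9 measured) summed to 3901 and 4996 in the same 2 knockouts, 3579 and 2914 in the controls and 2262 to 3448 in the other knockouts. Lyz2 and Csf1r were the brightest of them. No marker of T cells or natural killer cells passed in knockout versus control, and 1 macrophage marker was higher, Cd14, named after its value was seen. The part of these cells in the differences of the interferon response genes was not tested.

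The other marker lists gave 0 genes past the threshold in knockout versus control, except 3 of 14 of small intestine epithelium (2.79% of all genes were called lower): Fabp2, Vil1 and, named after its value was seen, the transcription factor gene Cdx2. Summed intensities of the knockouts and of the 2 controls overlapped for B and plasma cells (2490 to 4756 against 3062 and 3117, highest at 4756 and 4022 in knockout H replicate 2 and knockout L replicate 2), dendritic cells (126 to 233 against 205 and 181) and endothelium (246 to 480 against 267 and 273). They did so for smooth muscle (5062 to 9396 against 4849 and 10010) and lung epithelium (3980 to 13140 against 5116 and 4841). Neutrophil markers summed to 119 to 274 in the knockouts and 116 and 108 in the controls. Those of plasmacytoid dendritic cells, a list that holds Bst2 too, summed to 1172 to 3504 and to 1632 and 1140, most of it from Klk1. Small intestine epithelium summed to 26830 to 33650 in the knockouts and to 40290 and 37550 in the controls, with Lgals4 and Apoa1 the brightest. Knockout H replicate 2 was the highest array in the sums of lung epithelium (13140), endothelium (480), neutrophils (274) and dendritic cells (233). So it was for macrophages and for B and plasma cells. It was the lowest knockout for smooth muscle (5062) and plasmacytoid dendritic cells (1172).

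**Figure D4:**
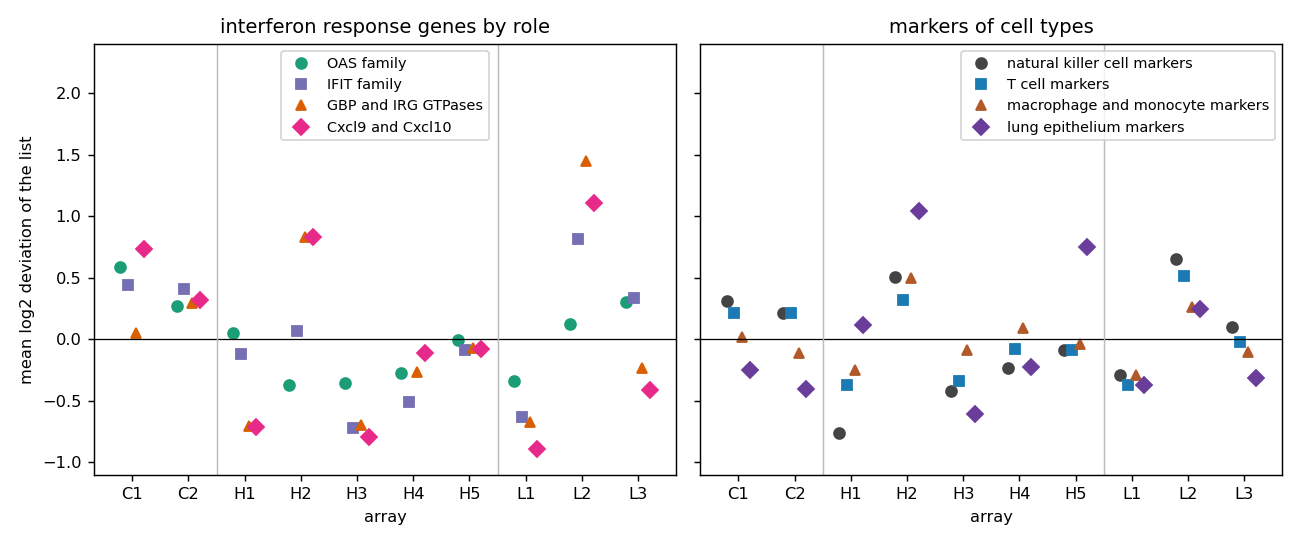
Mean log2 deviation of each array from the 10-array mean, for 4 groups of interferon response genes (left) and 4 lists of cell type markers (right), with C for control and H or L for the knockout groups. The GTPases and the chemokines stand at 1.45 and 1.11 in L2 and at 0.84 and 0.83 in H2, the arrays that are also highest in natural killer cell markers (0.65 and 0.51). H2 is the highest array in lung epithelium (1.04) and macrophage (0.50) markers too.

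The genes differed in which array stood on top. Of the 31 genes, 14 (45.2%) were highest in knockout L replicate 2, where 7.63% of all genes were, and 9 (29%) were highest in control replicate 1, where 18% of all genes were. All 5 GTPases and both chemokines belonged to the first 14. Those highest in control replicate 1 were Irf7, Ddx58, Usp18, Oas3, Oasl2, Ifit1, Rsad2, Rtp4 and Xaf1. Knockout H replicate 3 was the lowest array for 12 genes (38.7%, against 11.6% of all genes) and knockout L replicate 1 for 8 (25.8%, against 7.85%). Among the knockouts alone the highest was knockout L replicate 2 for 18 genes and knockout L replicate 3 for 10. Highest over lowest knockout had a median of 2.41-fold over the members and 1.4-fold over all genes.

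**Figure D5:**
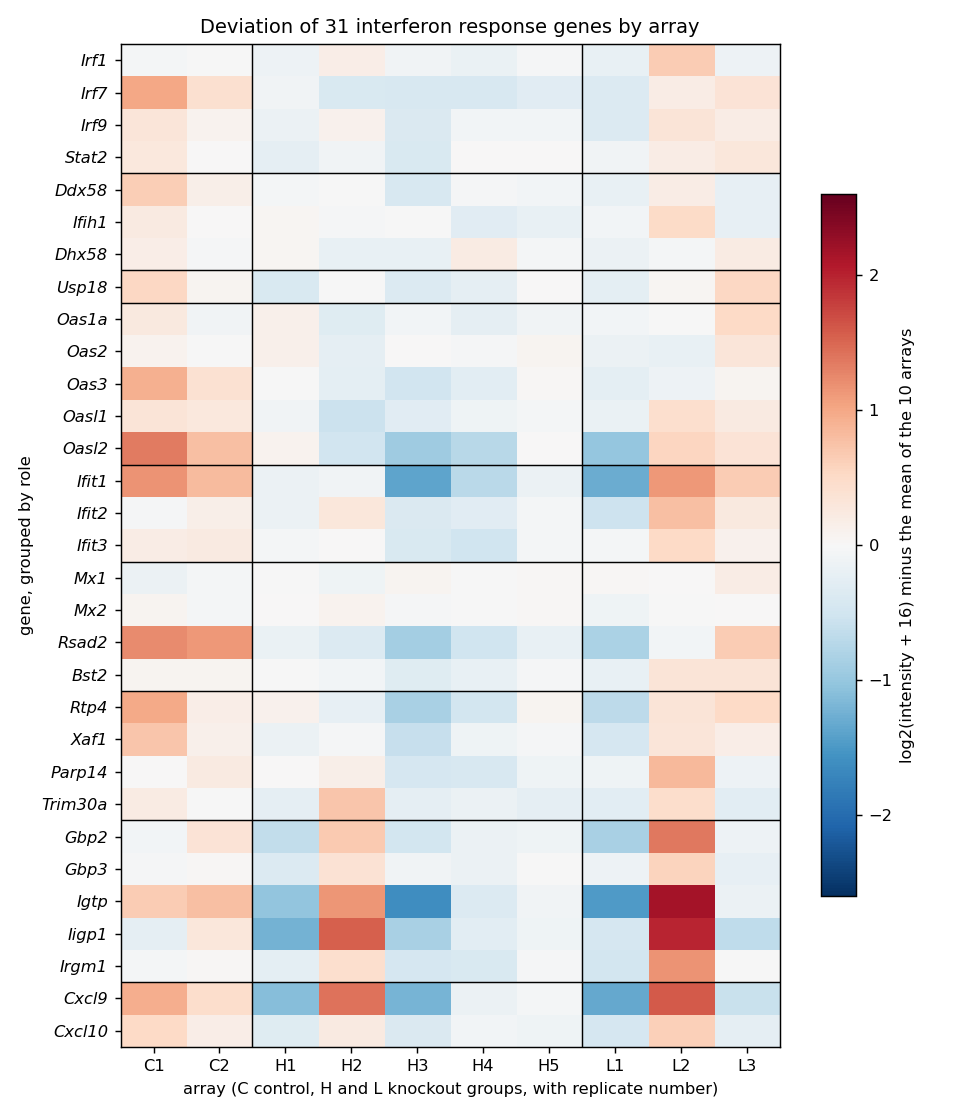
Log2(intensity + 16) of 31 interferon response genes on each array as the deviation from the gene's mean over the 10 arrays (colour), by role (rows) and group (columns). Deviations run from -1.62 to 2.16, and knockout L replicate 2 is the highest array for 14 genes.

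H versus L compared the knockouts whose titles carry these letters, with the number range and letter held. No member passed in limma, and none of the 13644 genes did (0%). At an unadjusted limma p under 0.05 stood 0 members, against 2.22% of all genes. The median difference of the members, H minus L, was -0.11, with 24 of 31 below 0, and that of all genes was 8.96e-06. The lowest was that of Ifit3 (-0.38) and the highest that of Cxcl9 (0.45), which ran from -0.34 to 1.03 over the alternatives. In at least 1 alternative 24 of the 31 members changed sign. Irf7 averaged 129 ± 14.3 in H (SD, n = 5) and 177 ± 46.5 in L (SD, n = 3), and its values overlapped between the groups. Without knockout L replicate 1 the median was -0.37, and without knockout H replicate 4 it was 0.08. Within the upper number range alone, which holds 5 of these knockouts, it was 0.13, so the direction differed from that of the fit over both ranges. The lower range holds 1 knockout L and gave no value of its own.

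Upper versus lower number range, in the same fit, gave 0 of 31 members past the threshold, where 0.3% of all genes passed. The median was 0.04, and Ifih1, with a difference of 0.43, was the member with an unadjusted limma p under 0.05 (1 of 31, against 10.2% of all genes). M versus F likewise gave 0 of 31, where 0.022% of all genes passed, 0.00733% lower and 0.0147% higher in M. Values of the members were lower in M for 29 of 31, with a median of -0.24 where all genes had -0.0078. That count was 20 without knockout L replicate 1 and 21 without knockout L replicate 2. It was 27 to 30 when any other array was left out. Dhx58 (-0.20) and Xaf1 (-0.43) had an unadjusted limma p under 0.05 (2 of 31, against 4.83% of all genes). The 4 arrays with the letter F include the ones highest in most members, knockout L replicates 2 and 3 and control replicate 1.

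Other parts of the interferon pathway were followed through 5 lists. Of 14 ligands and receptors, 10 had a probe set and 6 passed the filter, while the ligand genes Ifnb1, Ifna2, Ifna4 and Ifng did not. None passed the test in knockout versus control, and the 2 with the smallest p were the receptor genes Ifnar1 (82.8 ± 4.07 in knockouts, 87.8 ± 0.143 in controls, log2 difference -0.08) and Ifnlr1 of the type III receptor (45.5 ± 5.74 and 53.6 ± 4.56, -0.11). Of 13 signalling genes and inhibitors tested, 0 passed. Socs3, a feedback inhibitor of JAK kinases, read 258 ± 75.8 in knockouts and 120 ± 37.9 in controls, a log2 difference of 1.25 ± 0.32 (limma adjusted p = 0.0626). It was 1 of 2 genes among the 13 with all 8 knockouts above both controls, while 0 had all 8 below both. Tyk2, a kinase of the type I receptor, differed by -0.24. Of 12 nucleic acid sensing genes 0 passed, and Ticam1, the adaptor of the double-stranded RNA receptor TLR3, and Ikbke, a kinase that activates IRF3, differed by -0.49 and -0.24. All 8 knockouts lay below both controls for these 2 of the 12 genes and above both for 1 other. Of all genes tested, 11.7% lay below both and 10% above both.

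Among 25 other interferon-stimulated genes tested, 2 fell and 0 rose, where 2.79% of all genes were called lower and 1.52% higher. Cmpk2, the neighbour of Rsad2 in the genome, which makes the nucleotide that viperin converts, read 148 and 99.6 in the controls, 40.2, 34.7, 25.7, 28.8 and 39.7 in knockouts H replicates 1 to 5, and 30.7, 54.7 and 39.5 in knockouts L replicates 1 to 3. Every knockout lay below both controls, with a log2 difference of -1.46 ± 0.19 (limma adjusted p = 0.0111). It did not pass without control replicate 1 (-1.31, limma adjusted p = 0.156) or control replicate 2 (-1.59, 0.0549). Ifi35, an interferon-induced leucine zipper protein, averaged 589 ± 110 in knockouts and 875 ± 58.9 in controls (-0.73 ± 0.15, adjusted p = 0.0309 in limma), and 7 of 8 knockouts lay below both controls. Ifi35 did not pass in 9 of 24 alternative settings, among them those without control replicate 1 (-0.82) or control replicate 2 (-0.65). The same held without knockout L replicates 1 and 3 (limma adjusted p = 0.0501 and 0.0902) or knockout H replicate 4 (0.0968). It held for the mean of all probe sets of Ifi35 (-0.57, limma adjusted p = 0.0567) and for its lowest-mean probe set (-0.39, 0.106). With the number range only (limma adjusted p = 0.0554) or the letter only (0.0511) Ifi35 did not pass either. The median of this list was -0.28, with 18 of 25 below 0, where 51.3% of all genes were. All 8 knockouts lay below both controls for 1 of the 25, Cmpk2, and above both for 2 others. Among 20 interferon gamma-induced genes of the last list tested, 0 passed, 19 lay below 0 and the median was -0.51. These 20 are not all separate from the genes above. They include the member Gbp3 (-0.16), matched through a synonym, and Socs1, which was also among the signalling genes and inhibitors. The peptide loading factor Tapbp (-0.48, limma adjusted p = 0.0964) and Ido1, an enzyme of tryptophan breakdown (-1.16, 0.184), had the smallest p. Ido1 reached 527 in knockout L replicate 2, against 325 and 250 in the controls and 78.6 to 193 in the other knockouts.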

How the data were processed

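Total RNA of 10 mice was hybridised to 1-colour arrays of 45101 probe sets. The authors deposited a linear intensity for every probe set and array. How these were summarised and scaled is not given by the labels or the header. The arrays' 75th percentiles differed by at most 1.07-fold, and the values were used as deposited. The platform annotation gave 34945 probe sets 1 symbol, 932 several and 9160 none, besides 64 array controls. For 34741 probe sets with 1 symbol, the symbol was looked up through the gene identifier and used whether or not it differed. The members kept the symbol of the platform annotation.

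Intensities were taken to log2(intensity + 16), which understates differences of dim genes. Each gene was represented by its probe set with the highest mean. Genes with a mean log2 above the 25th percentile (4.89) were tested with limma 3.58.1 in R 4.3.3, with Benjamini-Hochberg adjustment over all 13644 genes at 0.05. Knockout versus control was fitted with the number range and the letter M or F as covariates. H versus L, number range and letter came from a fit with 3 groups. The code was tested on simulated data. Replicates were numbered in accession order. The number of arrays, and above all of controls, limits the precision.

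Named are all members, Cftr, 4 tissue genes, the 2 brightest genes of a marker list and, of each pathway list, the genes past the threshold or else the 2 with the smallest p. The members and lists were chosen with earlier results of these data known. Alternatives varied the pseudocount, filter, covariates, scaling, probe set, variance model and arrays used. Figures were drawn with matplotlib 3.10.9.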

Additional observations from a re-analysis of the deposited data

Results flagged for a closer look

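In 6 of 62 groups of values examined, 1 sample stood apart, measured as its gap to the nearest other sample over the whole range of the group. Chance flags about 1 in 20 such groups. Among the knockouts H, replicate 3 was low for Ddx58 (68.1, next 91.1, a share of 0.862) and for Xaf1 (49.05, next 72.0, a share of 0.775), and replicate 2 was high for Trim30a (97.5, next 45.7, a share of 0.914). Among all 8 knockouts, knockout L replicate 2 was high for Irf1 (1322, next 940, a share of 0.576), Ifih1 (326, next 237, a share of 0.558) and Parp14 (446, next 273, a share of 0.53).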

How the results depend on the processing

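The count of interferon response genes past the threshold in knockout versus control was 1. It was 0 with no filter on dim genes and with the lowest-mean probe set, and 2 with only genes above the 50th percentile. It was 3 with no covariates, with the letter only, in the lower number range alone and without the 2 arrays highest in natural killer cell markers, an alternative chosen after seeing the data. Leaving out 1 array gave 0 to 2. With the number range only, 1 gene passed, Oas3 in place of Irf7. Over all genes, 588 passed, against 1366 with no covariates, 1222 with the letter only, 1033 in the lower range alone, 390 with the lowest-mean probe set, and 0 (without control replicate 1) to 813 without 1 array. The median in knockout versus control was -0.37, -0.14 with the letter only, and -0.59 to -0.18 without 1 array. With the mean of all probe sets of a gene that median was -0.25, and with the lowest-mean probe set -0.24. In H versus L the median was -0.11, 0.13 in the upper number range alone, and -0.37 to 0.082 without 1 array. The counts for H versus L, number range and letter were 0 under every alternative run.

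Of the 31 genes, 19 kept their sign in knockout versus control under every alternative run. With no covariates the sign turned for Dhx58 (-0.087), Irf1 (0.0405), Irgm1 (0.014) and Oas2 (-0.051). With the letter only it turned for Dhx58 (-0.057), Gbp3 (0.0075), Iigp1 (0.012), Irf1 (0.057), Irgm1 (0.052) and Oas2 (-0.042). Leaving out 1 array gave -0.25 to 0.070 for Bst2, -1.08 to 0.23 for Gbp2, -0.56 to 0.18 for Ifit2, -1.34 to 0.23 for Iigp1, -0.34 to 0.043 for Irf1, -0.61 to 0.12 for Irgm1, -0.079 to 0.055 for Mx2, -0.24 to 0.14 for Oas1a, -0.019 to 0.16 for Oas2 and -0.17 to 0.0054 for Stat2. The cause was not tested. A fit without 1 control assumes that the lone control varies like the other groups. No paired analysis was possible because the replicate numbers are in accession order and pair no samples.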
